A study of Mus musculus with 6 samples.

Results

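Myeloid C-type lectin receptors are surface proteins of macrophages and other myeloid cells that carry a carbohydrate-recognition type of fold, and 10 of their genes were followed here by their symbols in the deposited count table: Clec4f, Clec1b, Clec4n, Clec4d, Clec4e, Clec7a, Clec12a, Clec4a1, Clec4a2 and Clec4a3. Of these, 9 were found among the 15458 rows of the table and all 9 were tested. Clec7a, the receptor Dectin-1 for fungal beta-glucan, is not analysed here. Messenger RNA was measured in 6 libraries of Kupffer cells, which are macrophages that reside in liver sinusoids, isolated by flow sorting from wild-type C57BL/6 mice that carried tumours of Hepa1-6, a mouse hepatoma line. In the KC_Epo group (3 libraries) the implanted Hepa1-6 cells overexpressed erythropoietin (EpoOE), the hormone that drives red cell formation, and in the KC_EV group (3 libraries) they held an empty vector (EV). Both groups therefore carried tumours, and all cells were taken on day 18 after implantation. The labels number the libraries without stating separate animals, so the p-values reflect only library-to-library spread, which may be technical.

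These receptors fall into functional kinds. Clec4n (Dectin-2), Clec4d (MCL) and Clec4e (Mincle) carry no activating motif of their own and signal through the adaptor chain encoded by Fcer1g, which recruits the kinase Syk and then the Card9, Bcl10 and Malt1 complex towards NF-kB. Clec1b (CLEC-2), the receptor for podoplanin on platelets and on mouse Kupffer cells, engages Syk through a single tyrosine motif in its own tail. Clec12a (MICL), which recognises uric acid crystals, and Clec4a2 (Dcir1) carry inhibitory tyrosine motifs that recruit phosphatases such as SHP-1, encoded by Ptpn6. Clec4f binds galactose-type sugars and is used as a defining surface marker of mouse Kupffer cells, and Clec4a1 (Dcir4) and Clec4a3 (Dcir3) are relatives of Clec4a2.

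Tyrosine codons near the start of Clec12a, Clec4a2 and Clec1b are shown because these receptors are known to signal through a tyrosine in their own tail. They were read from the start of the longest coding transcript of each gene in GENCODE release M21, 5′ to 3′, all on mouse chromosome 6; capitals mark the codons of the motif.
Clec12a: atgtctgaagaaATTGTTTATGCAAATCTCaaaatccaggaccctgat
Clec4a2: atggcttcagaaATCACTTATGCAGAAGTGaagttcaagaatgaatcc
Clec1b: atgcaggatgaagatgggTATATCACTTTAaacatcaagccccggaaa
In Clec12a and Clec4a2 the capitals are an inhibitory motif, that is isoleucine, valine, leucine or serine, any residue, tyrosine, any 2 residues and then isoleucine, valine or leucine, starting at codon 5. In Clec1b they are tyrosine, any 2 residues and leucine, starting at codon 7, a pattern that Clec12a also holds at codon 7. Within the first 50 codons, 6.11% of 21548 coding genes held the inhibitory pattern and 11% held the pattern of tyrosine, any 2 residues and leucine. Clec4n, a receptor of the activating kind, matched the inhibitory pattern at codon 39, far from codon 5. The window of 50 codons was not cut where a tail ends, so a match within it does not separate the kinds. Clec4f, Clec4d, Clec4e, Clec4a1 and Clec4a3 matched neither pattern in these 50 codons. A match of this kind is a description and not evidence of a working motif.

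In KC_Epo libraries 3 of the 9 receptors were higher, Clec4n by 2.697-fold, Clec4f by 1.72-fold and Clec1b by 1.33-fold, and Clec4a1 was lower at 0.693 of the KC_EV level. Clec12a, Clec4a2, Clec4a3, Clec4d and Clec4e did not pass the test. A gene was called when its Benjamini-Hochberg adjusted p by edgeR's quasi-likelihood test, over all 13120 genes tested, was under 0.05. Over all genes 32.3% were called, 16.9% as higher and 15.4% as lower. The 4 calls among 9 receptors are to be read against those shares, and with so few receptors the counts set nothing apart about them as a group. The median log2 fold change was 0.16 over the 9 receptors and -0.0045 over all genes tested. With library sizes only, in place of TMM scaling, 1193 genes were called higher and 3616 lower, against 2219 and 2015, and the median of all genes was -0.16; the same 3 receptors were then higher, and Clec4a2 joined Clec4a1 as lower.

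**Figure D1:**
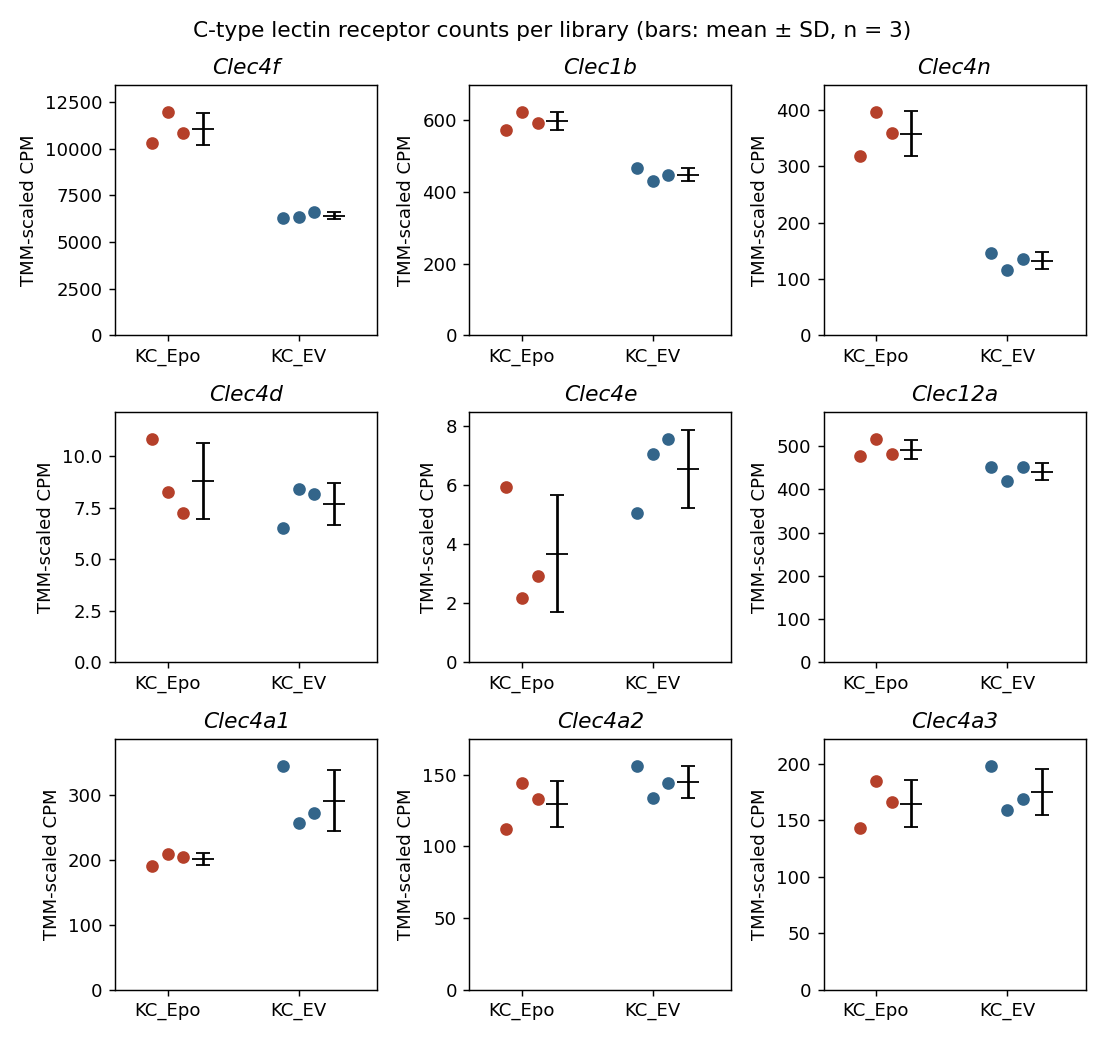
Level of the 9 receptors in each library in CPM, counts scaled to the library size with TMM factors, KC_Epo left and KC_EV right; points are libraries and bars are mean ± SD (n = 3). The groups do not overlap for Clec4f, Clec1b, Clec4n, Clec12a and Clec4a1, and they overlap for the other 4.

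Depth was 23201076 to 33280754 counts per library. As a check of the labels, Epo itself had 29, 44 and 21 counts in KC_Epo 1 to 3 and 0 counts in each KC_EV library. All 17 Kupffer cell markers were detected in every library. Their summed level was 49580 to 57370 CPM in KC_Epo and 34380 to 37460 CPM in KC_EV. Of the 17, 12 were called higher and 1, Adgre1, lower, while over all genes 16.9% were called higher and 15.4% lower. Timd4, C1qa, Id3 and Spic overlapped between groups and were not called, with log2 fold changes of 0.13 to 0.27. A larger share of Kupffer cells in a sort and more of a transcript per cell cannot be told apart in bulk libraries. Markers of other cells moved as well. The 12 hepatocyte markers summed to 20530, 6047 and 12340 CPM in KC_Epo 1 to 3 and to 2594 to 3221 CPM in KC_EV, and the 17 sinusoidal endothelial markers to 2999 to 4228 CPM in KC_Epo and 6436 to 7640 CPM in KC_EV. The 9 red cell markers with a row summed to 606 to 1109 CPM in KC_Epo and 33.5 to 43.1 CPM in KC_EV. Their part in the receptor results was not tested.

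Of the receptors with known Syk signalling, Clec4n, which binds the alpha-mannans of fungal walls, moved most. Clec4n had 318, 397 and 359.6 CPM in KC_Epo 1 to 3, against 147, 116 and 136 CPM in KC_EV 1 to 3. Every KC_Epo library was at more than 2 times the highest KC_EV library. The means were 358 ± 39.4 CPM in KC_Epo and 133 ± 15.9 CPM in KC_EV (SD, n = 3 each), and the log2 fold change was 1.43 ± 0.10 (SE, edgeR adjusted p = 3.19e-06). Its call held under all 17 alternative settings, with log2 fold changes of 1.27 to 1.58.

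The pair that lies next to it, Clec4d and Clec4e, was scarce. Clec4e, a receptor for mycobacterial cord factor, had 5.91, 2.19 and 2.92 CPM in KC_Epo 1 to 3, against 5.04, 7.03 and 7.55 CPM in KC_EV 1 to 3. KC_Epo 1 lay within the KC_EV range and the other KC_Epo libraries lay below it. The log2 fold change was -0.83 ± 0.35 (SE) and did not pass (edgeR adjusted p = 0.0935), and without KC_Epo 1 it was -1.36 and passed (adjusted p = 0.0016). KC_Epo 1 also had the highest sums of hepatocyte and endothelial markers in its group, and the 12 monocyte markers summed to 829 CPM there, against 587 and 679 CPM in KC_Epo 2 and 3 and 540.0 to 646 CPM in KC_EV. Among the monocyte markers, Fn1 had 342, 115 and 211 CPM in KC_Epo 1 to 3, in the order of the hepatocyte sums. Plac8 had 203, 271 and 240 CPM there and so was lowest in KC_Epo 1. Itgam, at 81.0, 48.4 and 55.3 CPM, was highest in KC_Epo 1. The sum is thus no clear measure of monocyte RNA, and the part of any of these cells in the Clec4e value was not tested. The 12 neutrophil markers, genes of another cell that makes Clec4e and Clec4d, summed to 293 to 367 CPM in KC_Epo and 265 to 537 CPM in KC_EV. Csf3r averaged 269 CPM in KC_Epo and 250.1 CPM in KC_EV. The granule gene Ngp had 6.68, 4.92 and 5.79 CPM in KC_Epo 1 to 3, against 0.694, 44.1 and 89.5 CPM in KC_EV 1 to 3, and S100a9, which encodes a calcium-binding protein of neutrophils, had 9.83, 10.7 and 8.84 CPM in KC_Epo 1 to 3, against 2.24, 34.7 and 68.2 CPM in KC_EV 1 to 3. Neither was called. Both were lowest in KC_EV 1 and highest in KC_EV 3, as Clec4e was among the KC_EV libraries. S100a8, Retnlg, Mmp9, Ltf, Camp and Lcn2 had that order too, while Csf3r and Mmp8 were lowest in KC_EV 2. In KC_EV 1 Ngp and S100a9 were below every KC_Epo library, whereas Clec4e there was above KC_Epo 2 and 3. Of the 10 neutrophil markers tested, 1 was called, Mmp9, as lower, while over all genes 15.4% were called lower. Lcn2, Retnlg and Csf3r had log2 fold changes above 0. Lcn2 had 30.6, 15.9 and 20.7 CPM in KC_Epo 1 to 3, against 0.883, 8.09 and 18.2 CPM in KC_EV 1 to 3. The part of neutrophil RNA in the Clec4e value was not tested. Cxcr2 had 0 counts in KC_Epo 1 and Stfa1 had 0 counts in KC_Epo 3, KC_EV 1 and KC_EV 2.

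Clec4d, which pairs with Clec4e at the cell surface, had 10.8, 8.27 and 7.25 CPM in KC_Epo 1 to 3, against 6.53, 8.41 and 8.14 CPM in KC_EV 1 to 3. The groups overlapped, and the log2 fold change of 0.19 ± 0.19 (SE) did not pass (edgeR adjusted p = 0.463). The raw counts behind these levels were 64 to 184 for Clec4e and 159 to 337 for Clec4d in KC_Epo, and 160 to 256 and 207 to 276 in KC_EV, so both rested on far fewer reads than the other receptors.

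Clec1b had 574, 624 and 593 CPM in KC_Epo 1 to 3, against 467, 430.0 and 449 CPM in KC_EV 1 to 3. All 3 KC_Epo libraries were above all KC_EV libraries, and the log2 fold change was 0.41 ± 0.07 (SE, edgeR adjusted p = 0.00104). Platelets also carry Clec1b, and 3 of 10 tested platelet and megakaryocyte markers, Pf4, Gp9 and Gp1bb, rose in KC_Epo. Over all genes 16.9% were called higher. Gp6, Gp1ba, Tubb1 and Ppbp had log2 fold changes below 0, from -1.52 to -0.06, and did not pass. Pf4 averaged 35.6 CPM in KC_Epo and 23.4 CPM in KC_EV. Gp9 and Gp1bb were scarce, at 1.88 and 1.48 CPM in KC_Epo and 0.621 and 0.221 CPM in KC_EV. All 11 such markers together came to 60.9 to 74.0 CPM in KC_Epo and 45.9 to 50.9 CPM in KC_EV, and their part in the Clec1b value was not tested. Gp6 was the only one of the 11 with 0 counts in a library, KC_Epo 3.

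Clec4f was the most abundant receptor in every library. It had 10274, 11970 and 10851 CPM in KC_Epo 1 to 3, against 6257, 6332 and 6611 CPM in KC_EV 1 to 3. The groups were far apart relative to their spread, with means of 11032 ± 863 CPM in KC_Epo and 6400.1 ± 186 CPM in KC_EV (SD, n = 3 each); the log2 fold change was 0.79 ± 0.09 (SE; adjusted p = 4.03e-05 by edgeR). The 17 Kupffer cell markers tested beside it, a list that leaves Clec4f out, had a median log2 fold change of 0.50.

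Clec12a, the inhibitory receptor for uric acid crystals, had 478, 517 and 481 CPM in KC_Epo 1 to 3, against 452, 419 and 452 CPM in KC_EV 1 to 3. The groups did not overlap, but the difference was small at a log2 fold change of 0.16 ± 0.07 (SE) and did not pass (edgeR adjusted p = 0.11). Over all genes, 48.3% had groups that did not overlap, as did 5 of the 9 receptors. With library sizes only the value was -0.0012, and without KC_EV 1 and KC_Epo 1 together it was 0.19 and passed (adjusted p = 0.0298).

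The 3 Clec4a genes of the set encode Dcir relatives. Clec4a1 had 191, 209.7 and 204 CPM in KC_Epo 1 to 3, against 345, 257 and 272 CPM in KC_EV 1 to 3. All KC_Epo libraries lay below all KC_EV libraries, and KC_EV 1 was the highest of its group. The log2 fold change was -0.53 ± 0.10 (SE, edgeR adjusted p = 0.00271), and -0.39 without KC_EV 1 (adjusted p = 0.00457). Dendritic cells also make Dcir receptors. In the same libraries 12 dendritic cell markers summed to 395 to 471 CPM in KC_Epo and 544 to 628 CPM in KC_EV. Of the 12, 8 were called lower and none higher, and none had 0 counts in a library. Over all genes 15.4% were called lower. Batf3, at 168 CPM in KC_Epo and 140 CPM in KC_EV, and Clec9a had log2 fold changes above 0, of 0.26 and 0.02. Neither passed, and Ccr7 and Siglech, at -0.13 and -0.51, did not pass either. The part of dendritic cells in the Clec4a1 value was not tested.

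Clec4a2, a Dcir gene with an inhibitory motif, had 112, 144 and 133 CPM in KC_Epo 1 to 3, against 156, 134 and 144 CPM in KC_EV 1 to 3. Clec4a3 had 143, 184 and 166 CPM in KC_Epo 1 to 3, against 198, 159 and 169 CPM in KC_EV 1 to 3. Both overlapped between groups, and neither passed, with log2 fold changes of -0.16 ± 0.09 for Clec4a2 (SE, edgeR adjusted p = 0.225) and -0.09 ± 0.11 for Clec4a3 (edgeR adjusted p = 0.558). Of the 50-base stretches of the Clec4a2 transcript, 15% also occurred in Clec4a4 or Clec4b1, so its reads can be shared with these neighbours. For Clec4n this was 0.932%, all shared with the predicted gene Gm44147, and for the other 7 receptors it was 0%.

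Levels of different genes were compared per kilobase of the longest coding transcript. On this scale the order in KC_Epo was Clec4f, Clec1b, Clec4n, Clec12a, Clec4a1, Clec4a3, Clec4a2, Clec4d and Clec4e, and only the neighbours Clec4a1 and Clec4a3, and Clec4a3 and Clec4a2, had overlapping ranges. In KC_EV it was Clec4f, Clec1b, Clec4a1, Clec12a, Clec4a3, Clec4a2, Clec4n, Clec4d and Clec4e, with overlap between Clec4a1 and Clec12a, Clec4a3 and Clec4a2, and Clec4a2 and Clec4n. Clec4n thus had rank 3 in KC_Epo, at 291.5 ± 32.05 CPM per kilobase, and rank 7 in KC_EV, at 108.1 ± 12.96 CPM per kilobase (SD, n = 3 each). Clec4f made up 76.1 ± 0.268% of the summed length-scaled level of the 9 receptors in KC_Epo and 69.4 ± 1.90% in KC_EV. Clec4e, the scarcest, stood at 1.46 ± 0.784 CPM per kilobase in KC_Epo and 2.60 ± 0.526 CPM per kilobase in KC_EV.

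The Clec4 receptors other than Clec4f lie side by side on chromosome 6. In the RefSeq annotation of GRCm38.p6, a build other than the authors' GRCm39, the 9 protein-coding genes of this run stand in the order Clec4a1, Clec4a3, Clec4a4, Clec4b1, Clec4a2, Clec4b2, Clec4n, Clec4d and Clec4e. Clec4n was the only gene of the run that rose. Clec4a1 at its end and Clec4b1 (Dcar) fell. Clec4b1 had 15.3 ± 3.46 CPM in KC_Epo and 24.3 ± 2.57 CPM in KC_EV (SD, n = 3 each), and its log2 fold change was -0.66 ± 0.15 (SE; adjusted p = 0.00733 by edgeR). Clec4a4 (Dcir2) averaged 2.25 CPM in KC_Epo and 2.44 CPM in KC_EV and did not pass. Clec4b2 had too few counts to be tested, with 0, 1 and 1 in KC_Epo 1 to 3 and 0, 29 and 73 in KC_EV 1 to 3. In the second run, from Clec12a through Clec12b, Clec1b, Clec9a and Clec1a to Clec7a, Clec1b rose and Clec1a, a lectin gene of endothelium, fell to 2.94 ± 1.33 CPM in KC_Epo, against 11.5 ± 1.02 CPM in KC_EV (log2 fold change -1.98 ± 0.32, SE, edgeR adjusted p = 0.00152). Clec1a fell in the same libraries as the endothelial marker sum, whose part in its value was not tested.

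**Figure D2:**
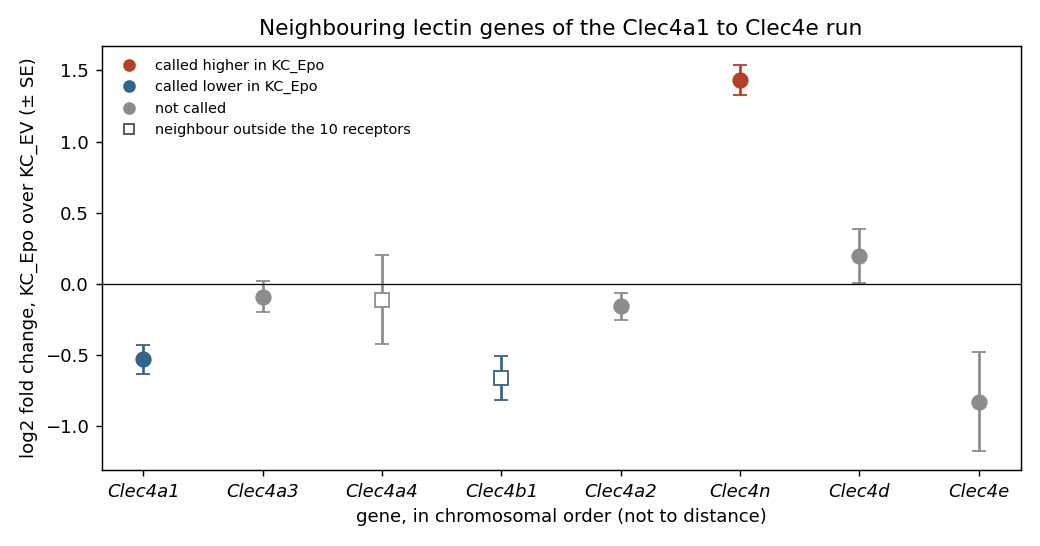
Log2 fold change (KC_Epo over KC_EV, ± SE) of the 8 tested genes of the run, in chromosomal order and not to distance; filled circles are receptors of the set and open squares are neighbours, coloured by call. Clec4n stands at 1.43 between Clec4a2 at -0.16 and Clec4d at 0.19; Clec4b2 was not tested and is not drawn.

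Ratios within a library do not depend on how libraries were scaled, and 7 pairs of related receptors were compared in this way as log2((count + 2)/(count + 2)). Each of 6 pairs separated the groups fully, which gave the smallest p that 3 against 3 allows in a two-sided exact permutation test, p = 0.1 (0.117 after Benjamini-Hochberg adjustment over the 7 pairs). No pair could pass 0.05 in this design. The log2 ratio of Clec4e to Clec4n was -6.70 ± 0.881 in KC_Epo and -4.34 ± 0.440 in KC_EV (SD, n = 3 each), a difference of -2.36. That of Clec4d to Clec4n differed by -1.25. Clec4d stood further above Clec4e in KC_Epo, with log2 ratios of 0.87, 1.89 and 1.29, than in KC_EV, with 0.37, 0.26 and 0.11, a difference of 1.10. Among the Dcir genes, Clec4a1 was lower relative to Clec4a2 by -0.36 and relative to Clec4a3 by -0.43. Clec4a2 to Clec4a3 was the pair whose groups overlapped, with a difference of -0.07 and an exact permutation p = 0.2. Clec4f to Clec1b, both of Kupffer cells, was 4.21 ± 0.051 in KC_Epo and 3.84 ± 0.0785 in KC_EV, a difference of 0.37.

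**Figure D3:**
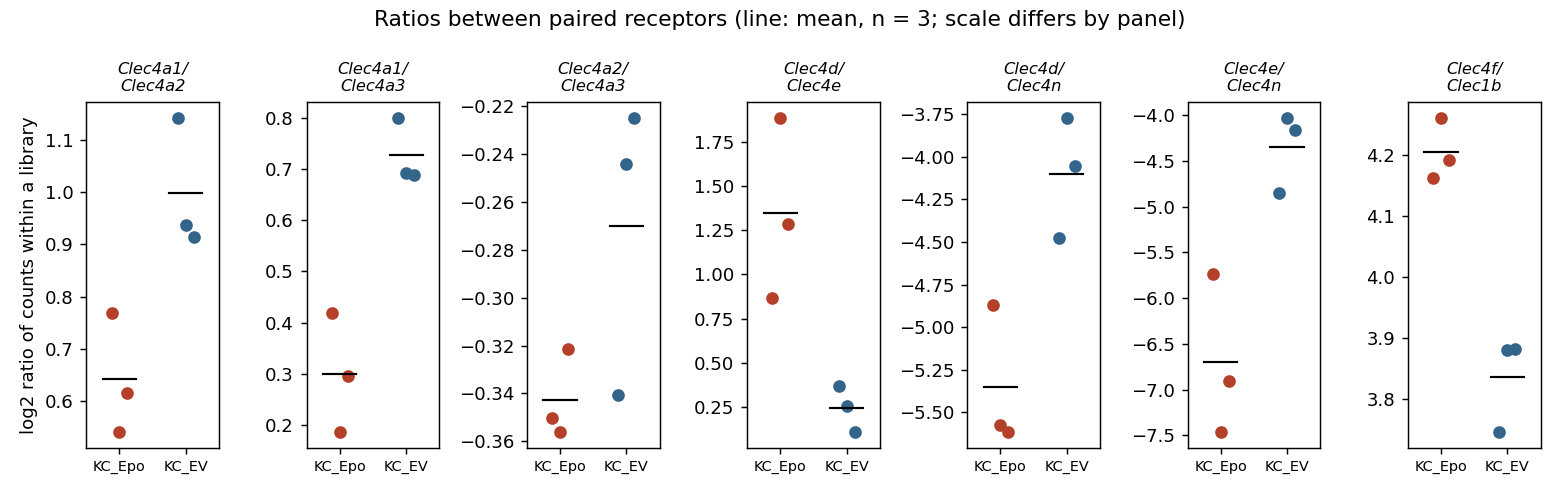
Log2 ratio of the counts of 2 receptors within each library, for 7 pairs, KC_Epo left and KC_EV right, with lines at the means (n = 3) and a separate scale in each panel. The groups separate in every panel but Clec4a2/Clec4a3, where KC_EV 1 at -0.34 lies among the KC_Epo libraries.

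Of 16 genes of the signalling chain below the activating receptors 2 rose and 5 fell, with a median log2 fold change of -0.036, while over all genes 16.9% were called higher and 15.4% lower. Fcer1g, the adaptor chain of Clec4n, Clec4d and Clec4e, had 1241 ± 97.0 CPM in KC_Epo and 1285 ± 90.9 CPM in KC_EV (SD, n = 3 each). Its difference did not pass (log2 fold change -0.05 ± 0.08, edgeR adjusted p = 0.689), but it passed as lower with library sizes only (-0.21, edgeR adjusted p = 0.0487). Syk, the kinase that Fcer1g and Clec1b recruit, fell to 520, 491 and 503 CPM in KC_Epo 1 to 3, against 661, 611 and 650.4 CPM in KC_EV 1 to 3. No KC_Epo library reached the KC_EV range, and the log2 fold change was -0.34 ± 0.07 (SE, edgeR adjusted p = 0.00285).

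Card9, the scaffold that links Syk to NF-kB, rose to 99.4, 101 and 111 CPM in KC_Epo 1 to 3, against 71.6, 85.7 and 84.2 CPM in KC_EV 1 to 3 (log2 fold change 0.37 ± 0.08, SE, edgeR adjusted p = 0.0062); with library sizes only it did not pass (0.21, adjusted p = 0.0772). Its partner Malt1, a protease, fell with a log2 fold change of -0.51 ± 0.09 (edgeR adjusted p = 0.00157), and Bcl10, the remaining protein of that complex, was at -0.02 ± 0.08 and did not pass (edgeR adjusted p = 0.847). Tyrobp, an adaptor of other myeloid receptors, was at 0.12 ± 0.12 and did not pass (edgeR adjusted p = 0.478), and without KC_Epo 1 it was at 0.25 and passed (adjusted p = 0.0264). Without KC_Epo 1 the list had 4 members higher. The other members called, named after their values were seen, were Src at 0.86, Vav3 at -0.84, Blnk at -0.63 and Vav1 at -0.25 on the log2 scale. The Vav1 call was lost without KC_Epo 2, KC_Epo 3 or KC_EV 3, at -0.21, -0.25 and -0.24 (adjusted p up to 0.0794).

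Of 6 phosphatase genes on the inhibitory side, 1 rose and 1 fell, a share near the 32.3% called over all genes and so no result about the list. Inpp5d, which encodes the lipid phosphatase SHIP-1, rose to 375 ± 13.1 CPM in KC_Epo, against 289 ± 18.4 CPM in KC_EV (SD, n = 3 each), with a log2 fold change of 0.38 ± 0.07 (SE; adjusted p = 0.00224 by edgeR). Ptpn6, the phosphatase of Clec12a and Clec4a2 class motifs, was at 563 ± 25.4 CPM in KC_Epo and 643 ± 29.8 CPM in KC_EV; it did not pass (log2 fold change -0.19 ± 0.07, edgeR adjusted p = 0.0626), and it passed as lower with upper-quartile factors, library sizes only, a filter of 1 CPM, DESeq2 and without KC_EV 1 and KC_Epo 1 together (-0.35 to -0.16, adjusted p of 0.00186 to 0.0472). The member that fell, named after its value was seen, was Inpp5b at -0.37.

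Genes that Syk and Card9 signalling induces in myeloid cells, many of which Toll-like receptors induce as well, fell more often than they rose, with 9 of 14 tested members lower and 2 higher and a median log2 fold change of -0.50. Over all genes 15.4% were called lower and 16.9% higher. Tnf, the inflammatory cytokine, had 46.7, 48.5 and 49.4 CPM in KC_Epo 1 to 3, against 158, 139.6 and 143 CPM in KC_EV 1 to 3 (log2 fold change -1.61 ± 0.07, SE, edgeR adjusted p = 7.36e-08). Il1b, Ccl4 and the prostaglandin synthase gene Ptgs2 also fell, with log2 fold changes of -1.29, -1.26 and -1.78. Il6 and the inflammasome sensor Nlrp3 rose, at 0.40 and 0.29, but with library sizes only neither passed (0.24 and 0.13), and Nlrp3 also did not pass without KC_EV 2 or KC_EV 3 (0.26 and 0.29, adjusted p up to 0.0727). The list had 1 member higher without either of these 2 KC_EV libraries. Il23a and Csf2 had too few counts to be tested.

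**Figure D4:**
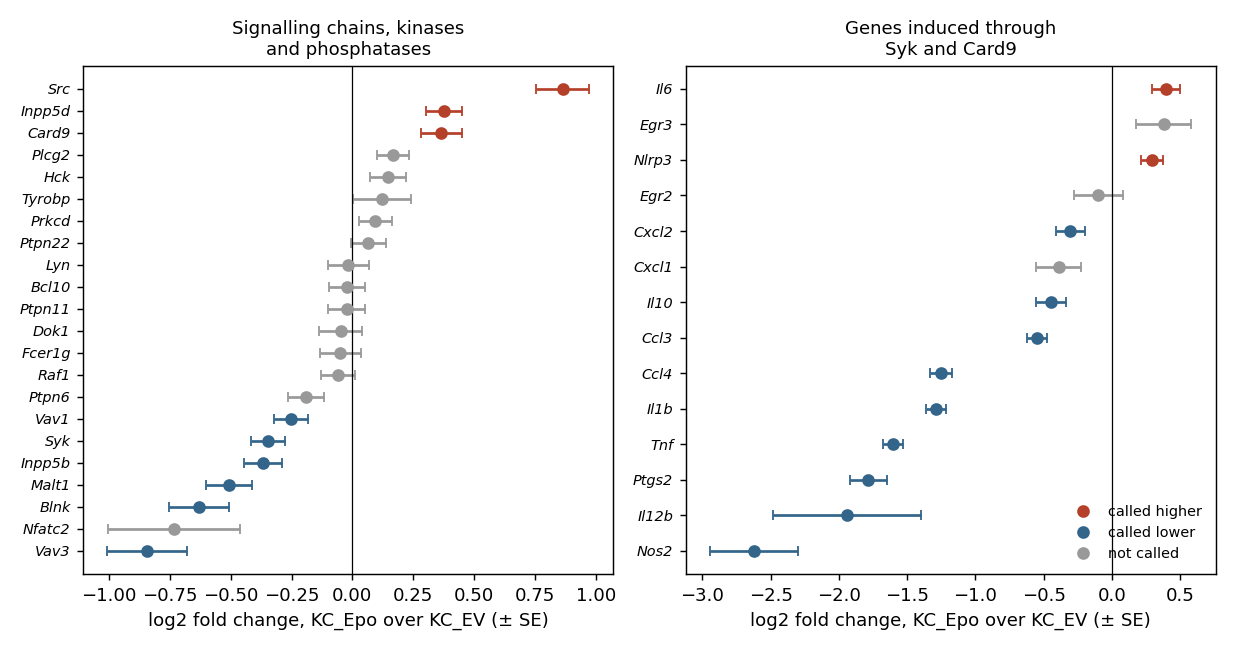
Log2 fold change (KC_Epo over KC_EV, ± SE) of the tested signalling and phosphatase genes (left) and of genes induced through Syk and Card9 (right), coloured by call. Fcer1g lies at -0.05 and Syk at -0.34 on the left, and Tnf lies at -1.61 on the right.

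Other C-type lectin genes were lower more often than higher: of 36 tested, 18 fell and 7 rose, with a median log2 fold change of -0.50, while over all genes 15.4% were called lower and 16.9% higher. Without KC_Epo 3 the number lower was 11. The fallers included the endothelial lectin genes Clec4g, Clec14a and Clec1a, at -1.72, -1.42 and -1.98 on the log2 scale, and the dendritic cell lectin genes Cd209a and Ly75, at -1.05 and -1.73, all named after their values were seen. In the same libraries 13 of 17 endothelial and 8 of 12 dendritic cell markers were lower. The endothelial marker Cdh5 was higher, at 812 CPM in KC_Epo and 682 CPM in KC_EV (edgeR adjusted p = 0.0139). Pecam1, Lyve1 and Egfl7 were not called. Clec4g is itself among these endothelial markers and Cd209a among these dendritic cell markers, so both are counted on both sides. The part of these cells in the falls was not tested. The fallers with the smallest adjusted p were Pla2r1, a receptor for secreted phospholipase, the activation marker Cd69, Cd207 (langerin) and Olr1, a receptor for oxidised lipoprotein. Pla2r1 averaged 1.19 ± 0.338 CPM in KC_Epo and 15.5 ± 2.29 CPM in KC_EV (SD, n = 3 each), the largest fall of the 4 on the log2 scale at -3.69 ± 0.22 (SE, edgeR adjusted p = 5.25e-07). Cd207 averaged 52.3 ± 11.0 CPM in KC_Epo and 151 ± 9.51 CPM in KC_EV. The risers were led by the scavenger lectin Colec12, with 40.6 ± 2.23 CPM in KC_Epo and 12.5 ± 0.672 CPM in KC_EV (log2 fold change 1.70 ± 0.10, SE, edgeR adjusted p = 3.55e-07), followed by Clec10a at 0.68, Cd302 at 0.61 and the hepatocyte lectin Asgr2 at 1.30. Asgr2 had 16.3, 8.08 and 11.8 CPM in KC_Epo 1 to 3, in the order of the hepatocyte marker sums, whose part in its value was not tested.

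Over the 6 libraries, the 2 genes with the most similar log2 CPM to each receptor were listed as a description. Of the 10100 genes compared, a Pearson r above 0.95 was reached by 862 for Clec4f, 803 for Clec1b and 823 for Clec4n, by 162 for Clec4a1, 131 for Clec12a and 108 for Clec4e, and by 41 for Clec4a2, 34 for Clec4a3 and 5 for Clec4d. A high r was thus shared by many genes for the 3 receptors that rose and by few for Clec4d. For Clec4f they were Coro2a and Csf2rb2 (r = 0.999 each), for Clec1b Mospd2 and Cd5l (0.999 each), and for Clec4n Shtn1 and Cd84 (0.999 each). For Clec4a1 they were Psma6 and Acsl5 (0.995 and 0.990), for Clec4a2 Psma5 and Dock10 (0.988 and 0.987), and for Clec4a3 Rack1 and Arpc2 (0.994 and 0.989). For Clec12a they were Tnpo3 and Themis2 (0.999 and 0.993), for Clec4e Stxbp5 and Pcnx (0.994 and 0.992), and for Clec4d Itga10 and Mrps5 (0.975 and 0.964). These points share the library depth and the split between groups.

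The promoters of the called receptors are shown to set the genes that rose beside the one that fell. RefSeq (GRCm38.p6) gave a promoter for 8 of the 9 receptors, all but Clec4n. Below are the 250 bases before the start, on the strand of the gene, for Clec4f (chr6:83656117-83656366, minus strand), Clec1b (chr6:129397047-129397296, plus strand) and Clec4a1 (chr6:122921598-122921847, plus strand); capitals mark the letters GAGGAA or their complement, a core that the myeloid factor PU.1 can bind.
Clec4f: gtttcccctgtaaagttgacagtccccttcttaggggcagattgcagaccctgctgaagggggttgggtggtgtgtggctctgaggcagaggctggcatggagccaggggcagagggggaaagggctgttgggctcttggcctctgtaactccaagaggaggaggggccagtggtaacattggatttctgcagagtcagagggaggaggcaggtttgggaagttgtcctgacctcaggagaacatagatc
Clec1b: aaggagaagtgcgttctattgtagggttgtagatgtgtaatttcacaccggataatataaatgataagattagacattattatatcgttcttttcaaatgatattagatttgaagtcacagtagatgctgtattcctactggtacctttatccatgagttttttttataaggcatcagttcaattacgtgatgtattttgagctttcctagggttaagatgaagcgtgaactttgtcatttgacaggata
Clec4a1: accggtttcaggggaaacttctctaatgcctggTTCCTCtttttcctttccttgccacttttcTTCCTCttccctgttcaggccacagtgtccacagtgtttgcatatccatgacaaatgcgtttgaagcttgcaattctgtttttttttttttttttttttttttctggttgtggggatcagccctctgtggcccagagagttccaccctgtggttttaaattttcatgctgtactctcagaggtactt
On either strand, GAGGAA was found 2 times in the Clec4a1 window and 0 times in those of Clec4f and Clec1b. Clec4e and Clec12a held it 2 times each, Clec4d 1 time, and Clec4a2 and Clec4a3 0 times, while 23.1% of 27025 promoter windows held it. The STAT5 letters TTCNNNGAA were found in Clec4a2 (7.18% of windows) and the AP-1 letters TGANTCA in Clec12a (6.87% of windows), and neither was found in the 3 windows printed. No match says only that these letters are not in this window.

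**Figure D5:**
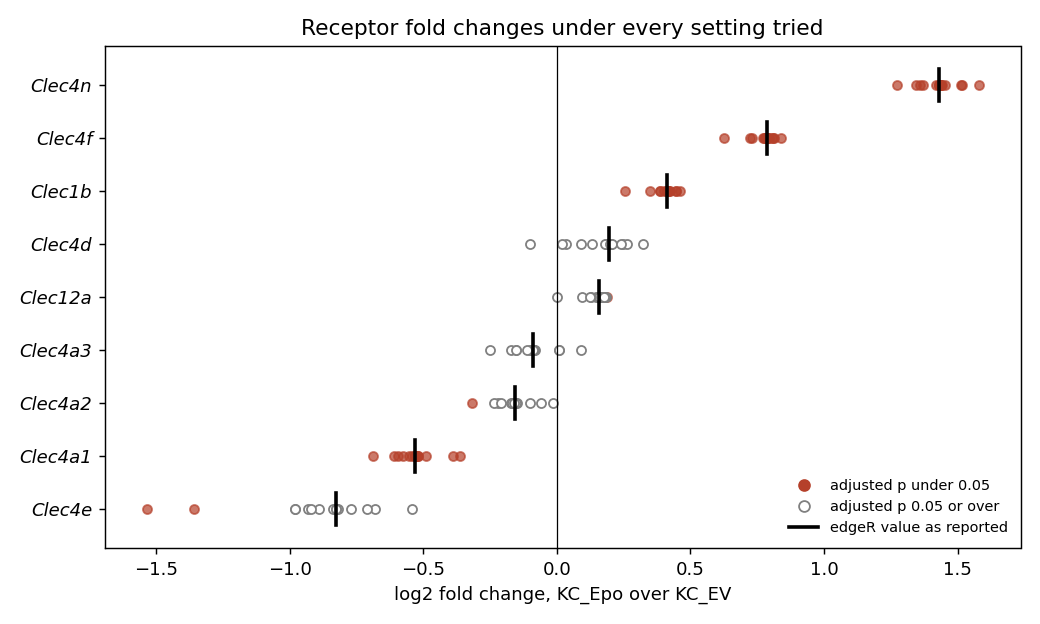
Log2 fold change (KC_Epo over KC_EV) of each receptor under the 17 alternative settings (points, filled where the adjusted p was under 0.05) and as reported (black bar). Clec4n, Clec4f, Clec1b and Clec4a1 keep their side of 0 and pass in all settings, while Clec4e passes in 2 and Clec12a and Clec4a2 in 1 each.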

How the data were processed

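Messenger RNA was measured in 6 libraries, 3 per group. Stranded TruSeq libraries were prepared from polyA RNA, per the labels' protocols. The build GRCm39 and the tools STAR 2.7.3a, HTSeq 0.11.2, Bowtie2 2.5.1 and FastQC 0.11.8 appear in the submitters' processing notes without role or order, and how strand was counted is not given in the sources used. The deposited values are whole-number read counts per gene symbol, not normalized; 12 symbols stood on 2 rows, of which the one with the larger total was used. No pair of libraries in a group was a duplicate (chi-square per gene at least 6.15).

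Counts were fitted in R 4.3.3 with edgeR 4.0.16 (TMM, filterByExpr, robust quasi-likelihood, two-sided, no block) on all genes, with Benjamini-Hochberg adjustment and a threshold of 0.05; SEs come from the F statistic, and levels are TMM-scaled CPM. Log2 CPM for likeness used a prior count of 2, among genes averaging at least 5 CPM. The procedure was also run on counts simulated with the same dispersion for every gene. That is a simpler setting than these data, and no result here rests on it. Alternatives were other scalings, filters, fits, DESeq2 1.42.0, limma 3.58.1 (voom) and each library left out.

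The receptors and gene lists were chosen with earlier results of these data known. Named genes were all receptors, Fcer1g, Tyrobp, Syk, Card9, Bcl10, Malt1, Ptpn6 and Inpp5d, up to 4 genes per direction of the induced and other lectin lists by adjusted p, and the 2 genes most like each receptor; other genes named are neighbours, markers or members named after their values were seen. The planned ratio of Clec7a to Clec12a was left out, as Clec7a is not analysed here.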

Additional observations from a re-analysis of the deposited data

How the results depend on the processing

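Clec4n, Clec4f, Clec1b and Clec4a1 kept their direction and passed under all 17 alternatives. The receptor count was 3 higher except without KC_EV 1 and KC_Epo 1 together, where Clec12a made it 4, and 1 lower except with library sizes only, where Clec4a2 made it 2, and without KC_Epo 1, alone or with KC_EV 1, where Clec4e made it 2. Leaving out 1 library at a time gave 3 receptors higher and 1 to 2 lower, 2 to 4 signalling genes higher and 4 to 6 lower, 1 phosphatase gene higher and 1 lower, 1 to 3 induced genes higher and 7 to 9 lower, 5 to 7 other lectin genes higher and 11 to 17 lower, and 1477 to 2410 of all genes higher and 1251 to 2147 lower. The extremes of 1477, 1251 and 11 came without KC_Epo 3. Leaving out KC_EV 1 and KC_Epo 1 together, chosen after seeing the data, gave 4 signalling genes higher. Library sizes only gave 1193 of all genes higher and 3616 lower, 1 signalling gene higher and 8 lower, and 0 induced genes higher. Phosphatase genes lower numbered 2 with upper-quartile factors, library sizes only, a filter of 1 CPM, DESeq2 and the 2 libraries left out together. Apart from what the settings themselves remove, the cause was not tested.

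The log2 fold changes that changed sign belonged to genes that were not called. They were Clec12a at -0.0012, Tyrobp at -0.040 and Clec9a at -0.13 with library sizes only, and Clec9a at -0.037 with upper-quartile factors. With KC_EV 1 and KC_Epo 1 both left out they were Clec4d at -0.10, Clec4a3 at 0.090 and Fcer1g at 0.046. With 1 library left out, values ran from -0.17 to 0.0099 for Clec4a3 and from -0.11 to 0.012 for Fcer1g (above 0 without KC_Epo 1 or KC_EV 1), from -0.0078 (without KC_Epo 2) to 0.25 for Tyrobp, from -0.071 to 0.028 (without KC_Epo 3) for Bcl10, and from -0.26 to 0.047 for Clec4a4 (above 0 without KC_Epo 3 or KC_EV 1).

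With a replicate block, 3 receptors were higher and 1 lower, and 1800 of all genes were higher and 1558 lower. Libraries with the same number did not deviate together (r = -0.108, -0.148 and -0.0407). With 3 libraries per group this cannot show whether the numbers pair the samples. No difference between log2 ratios changed sign when 1 library was left out. The differences ran from -2.84 to -1.97 for Clec4e to Clec4n, -1.49 to -1.09 for Clec4d to Clec4n and 0.83 to 1.34 for Clec4d to Clec4e. For the Dcir genes they ran from -0.42 to -0.28 for Clec4a1 to Clec4a2 and -0.49 to -0.37 for Clec4a1 to Clec4a3. The range was -0.11 to -0.05 for Clec4a2 to Clec4a3 and 0.33 to 0.39 for Clec4f to Clec1b. Depth limits Clec4d and Clec4e most, at 64 to 337 counts per library.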
